A study of Mus musculus with 12 samples.

Results

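The mitochondrial ribosomal protein genes are the nuclear genes for the protein part of the ribosome that works inside mitochondria. Members were taken by symbol, as every row named Mrpl (large subunit) or Mrps (small subunit) followed by a number and at most 1 letter. This gave 77 of the 47730 features of the deposited table. One further row of the same form was not analysed here, and ribosomal proteins with unrelated symbols, such as Dap3, were kept as a list of their own. Of the 77, 50 belong to the large subunit, 26 to the small subunit, and 1, Mrps36, carries the name but is known as a component of the 2-oxoglutarate dehydrogenase complex.

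The study sequenced poly(A)-selected RNA from testis and from skeletal muscle (gastrocnemius with plantaris) of male mice that were 5 to 6 months old, fed freely, and killed around the middle of the light phase. All mice were C57BL/6J, either wild type (Bckdk+/+) or homozygous for a mutant allele (BckdkM/M) that had been backcrossed for at least 10 generations. Bckdk encodes the kinase that inhibits breakdown of branched-chain amino acids. The sample titles mark the mutant libraries as KO (knockout), and this mark is the label meant by the words labelled mutant below. The labels name no tissue that the allele is limited to. How the M allele alters the gene's sequence is not given in the sources used here. There were 12 libraries in 4 groups of 3, with wild-type muscle and wild-type testis from mice A, B, C, mutant muscle from D, F, G, and testis labelled mutant from D, E, F. Values are given in this order of letters, and 5 of the 7 mice gave both tissues.

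Mitochondria keep a small genome that encodes core subunits of the respiratory chain and the RNA of their own ribosome, and every protein of that ribosome is made in the cytosol and imported. Many of its proteins have a counterpart in bacterial ribosomes, and the others were added during the evolution of mitochondria. Skeletal muscle is rich in mitochondria with a dense respiratory chain, whereas in testis the mitochondria change form as germ cells develop into sperm.

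Each library held between 12852427 and 15795722 counted reads. Bckdk was at 2214 to 2627 normalised counts in wild-type muscle and at 12.4 to 14.8 in mutant muscle, but in testis it was at 68.0 to 73.3 in wild type and at 114 to 138 in the libraries labelled mutant, which goes against their label. NeoR, a row named for a neomycin resistance gene, follows the labels in both tissues, at 208 to 266 in mutant and 2.28 to 3.85 in wild-type muscle, and at 13.1 to 19.9 in testis labelled mutant and 1.77 to 3.34 in wild-type testis. Because these features point in different ways in testis, it is given by label throughout. Muscle markers were high in all 6 muscle libraries and germ-cell markers in all 6 testis libraries. The summed level of 8 skeletal muscle markers in testis was 597 in wild-type B and 5665 to 13299 in the others, against at least 1196200 in muscle. A list of 12 pancreatic islet genes summed to 33633 and 31624 in mutant muscle F and G against 13955 to 16446 in the other muscle libraries, and to 20168 and 20009 in testis libraries A and B against 10993 to 14293 in the other testis libraries. Mutant muscle G also had the highest share of reads from the mitochondrial genome (11.5%, against 7.65% to 8.21% in the other muscle libraries) and the highest adipocyte marker sum.

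Levels of the members spanned a wide range within each tissue even though the proteins enter 1 complex. Values per kb of exon (normalised counts divided by the summed exon length of the gene) had a median of 265 over the 77 members in wild-type muscle and of 109 in wild-type testis. The 90th percentile of the list was 9.61 times the 10th percentile in muscle, and 10.7 times in testis. In muscle the highest level per kb was that of Mrps21, a small-subunit protein with a bacterial counterpart, at 2307 ± 730 (SD, n = 3). Mrps28 (1031), Mrpl2 (1002), Mrpl42 (991) and Mrpl12 (966) followed on the same scale. Their order among themselves is not separated by the spread between libraries. In testis the highest was Mrpl39 at 604 ± 5.75, followed by Mrpl54 (487), Mrpl24 (479), Mrpl12 (399) and Mrpl41 (397). Mrpl12, which forms the stalk that recruits translation factors, was thus the 1 member among the 5 highest of both tissues. The lowest level per kb in both tissues was that of Mrpl53 (15.0 in muscle and 7.62 in testis), but 88.0% of its exon bases are shared with Gm42688 on the same strand, and reads in a shared stretch may not be assigned to either gene. In muscle Mrps35, Mrpl19, Mrps10 and Mrps22 came next from the bottom (29.7 to 73.4), and in testis Mrps35, Mrpl23, Mrpl17 and Mrpl58 (8.95 to 24.6).

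**Figure D1:**
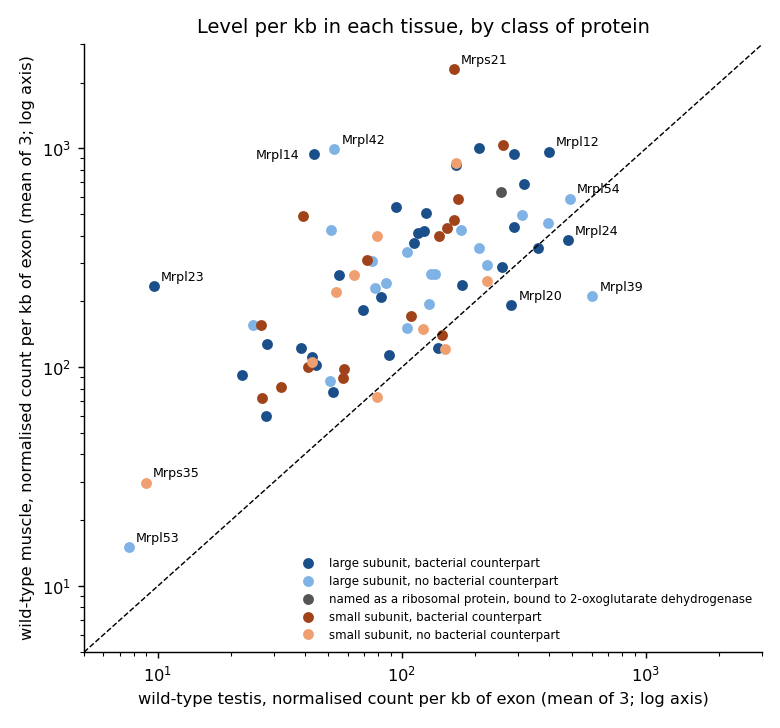
Each point is 1 of the 77 members, placed by its mean normalised count per kb of exon in wild-type testis (x) and wild-type muscle (y), both on log axes, with colour for the structural class and a dashed line where the tissues are equal. Most points lie above the line, Mrpl39 lies below it, and Mrpl23 is near the bottom of the testis range at 9.63 but at 235 in muscle.

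The order of the members differed between tissues far more than between genotypes. Across the 77 members, Pearson's r of the log2 level between wild-type muscle and wild-type testis was 0.484 and Spearman's rho 0.317. Between the genotype groups of 1 tissue, r of the log2 level was 0.991 in muscle and 0.995 in testis. Per kb, r between the wild-type tissues was 0.63 and rho 0.61. These are descriptions across genes, which are not independent replicates, and all of these pairs share each gene's length and sequence. With the median length of the coding transcripts in place of all exon bases, the highest member became Mrpl42 in muscle (5520, with Mrps21 in rank 2) and Mrpl20 in testis (947, with Mrpl39 in rank 3), so the leading names depend on the length used. Of the lowest in muscle, Mrps22 moved from rank 73 to 60, while Mrpl53 (77) and Mrpl19 (75) kept their ranks. Mrps10 and Mrpl23, also named as low per kb, have 8079 and 4883 exon bases. Their coding transcripts have a median of 1063.5 and 692 bases, so their low values also depend on the length used.

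Most members were higher in muscle than in testis. As a share of all reads they took 0.325% ± 0.0225 (SD, n = 3) in wild-type muscle and 0.197% ± 0.00225 in wild-type testis, a ratio of 1.65, and their summed normalised counts differed by 2.31-fold. By limma on log2(normalised count + 1), with Benjamini-Hochberg adjustment over all 19994 genes tested, 64 of 76 members tested were higher in wild-type muscle, 4 were lower and 8 did not pass. Mrpl53 was below the filter on low values and was not tested in this comparison. The 2 tissues differ so widely that 87.9% of all genes tested passed, 37.3% as higher and 50.6% as lower in muscle, and 84.2% of the members tested passed as higher. The members' median log2 difference was 1.36, against -0.48 for all genes tested. These are bulk tissues, in which fewer cells of a type and less RNA per cell cannot be told apart.

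The size of the all-gene value depends on the scaling and on the filter, and the members are best read against it. Scaling by TMM, by median of ratios or by total reads moved the all-gene median to -0.31, -0.40 and -1.0, and the members then stood 1.83, 1.83 and 1.88 above it. Calls of members moved with the scaling to 68 higher and 2 lower by TMM and to 53 higher and 11 lower by total reads. Calls over all genes moved in the same directions, from 7464 higher and 10111 lower of 19994 tested. They became 7944 and 9682 of 19994 by TMM, and 6046 and 11607 of 20184 by total reads. Without 1 of the testis libraries the filter removes many genes found in testis only, the all-gene median turned to between 0.17 and 0.18, and the members stood 1.15 to 1.22 above it. Among the members 19 were at least 4-fold higher in muscle, 6 at least 8-fold, and 18 lay within 1.5-fold between the tissues. The same counts were not made over all genes tested, so these do not set the members apart from other genes.

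The same order of members appeared in the comparison of mutant muscle with testis labelled mutant, which uses 6 other libraries, of which 4 come from mice D and F. There 63 of 77 members were higher, 5 were lower and the median was 1.34, against -0.48 for all genes (85.9% of all genes passed, 36.3% as higher and 49.7% as lower). The 63 include Mrpl53, which met the filter on low values through mutant muscle only (13.7, 19.4 and 13.5). In testis labelled mutant it was at 2.02, 3.31 and 7.99, so its call rests on that filter. Among the 76 members also tested in wild type, 62 were called higher. Of the 76 members tested in both comparisons, 75 had the same sign. The 60 called higher in both were 93.75% of the wild-type calls and 96.8% of those in the other comparison, and 0 were called in opposite directions. The agreement over all genes was not computed. With 87.9% and 85.9% of all genes passing in the 2 comparisons, high agreement may not be particular to the members. The tissue differences correlated across the 76 members with r = 0.989 and rho = 0.985. The median absolute gap between the 2 estimates was 0.13, and the largest was 0.55, for Mrps33.

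**Figure D2:**
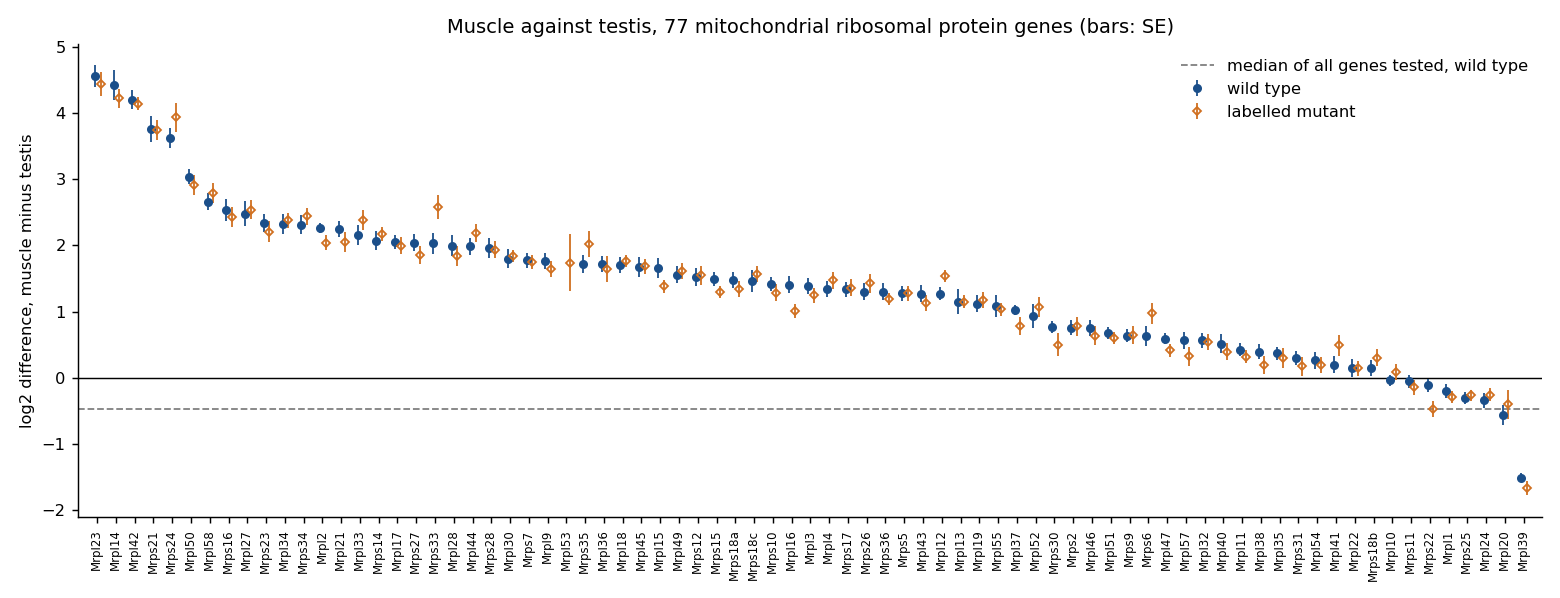
Log2 difference (muscle minus testis, with SE) of each of the 77 members, ordered from the highest to the lowest, for the wild-type libraries (filled) and for those labelled mutant (open). The dashed line is the median of all genes tested at -0.48; 68 of the 76 wild-type points are above 0, and Mrpl39 stands alone near the lower edge at -1.51.

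Promoter sequences were read for the members, most of which were higher in muscle than in testis. RefSeq windows (GRCm38.p6, 250 bases before to 50 after a start) were found for 68 of the 77 members, in 71 windows. The ETS core CCGGAAG, bound by factors such as GABPA, was present on either strand in 35.2% of the members' windows and in 11.5% of the 21192 windows of other protein-coding genes. The YY1 motif AAGATGGCG was in 11.3% against 1.80%, and the NRF1 palindrome, GCGCATGCG followed by a C, in 4.23% against 1.32%. Without that last C the NRF1 shares were 9.86% and 2.33%, but this shorter form was chosen after the result of the full palindrome had been seen. The SP1 box GGGGCGGGG was in 21.1% against 15.3%, the cyclic AMP element TGACGTCA in 2.82% against 2.23%, and the ERR element TCAAGGTCA in 0 of 71 against 0.335%. Each motif was searched alone, so matches of different motifs may overlap, and a match is a run of letters rather than a shown binding site. The median GC content was 58.7% in the members' windows and 56.3% in the others. In the 150 bases around the start the ETS shares were 31.0% and 8.68%, those of YY1 9.86% and 1.42%, those of the NRF1 palindrome 2.82% and 1.01%, and those of SP1 8.45% and 11.3%.

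Members with an ETS match had a median tissue difference of 1.61 (24 tested) and those without one of 1.27 (43 tested), and the difference between these medians was not tested. The 3 members with the NRF1 palindrome had a median of 0.56 and the 64 without it of 1.39, and with the shorter form these medians were 0.15 (7 members) and 1.41 (60 members). These differences were not tested either. The windows below belong to the 6 members with the largest excess in muscle, to the S18 family, whose members differ between tissues, and to Mrpl39, the member most strongly higher in testis. Capitals mark matches of the 6 motifs on either strand, with NRF1 as the full palindrome, and each window is given 5′ to 3′ on the strand of the gene.
Mrpl23, chr7:142532782-142533081, plus strand, with an SP1 match before the start: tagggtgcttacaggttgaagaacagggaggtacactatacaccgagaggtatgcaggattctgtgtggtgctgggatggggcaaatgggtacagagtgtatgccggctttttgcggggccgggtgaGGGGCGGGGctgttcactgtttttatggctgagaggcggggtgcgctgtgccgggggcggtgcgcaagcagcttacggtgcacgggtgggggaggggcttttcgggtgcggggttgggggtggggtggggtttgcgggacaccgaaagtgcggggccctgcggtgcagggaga
Mrpl14, chr17:45686099-45686398, plus strand, with an SP1 match before and another after the start: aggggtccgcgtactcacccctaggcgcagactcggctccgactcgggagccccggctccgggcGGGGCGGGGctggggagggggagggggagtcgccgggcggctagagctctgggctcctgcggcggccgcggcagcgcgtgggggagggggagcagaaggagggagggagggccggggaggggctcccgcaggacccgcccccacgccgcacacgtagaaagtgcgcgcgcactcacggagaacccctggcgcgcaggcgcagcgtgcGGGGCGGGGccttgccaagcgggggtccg
Mrpl42, chr10:95501900-95502199, minus strand, with a YY1 match after the start: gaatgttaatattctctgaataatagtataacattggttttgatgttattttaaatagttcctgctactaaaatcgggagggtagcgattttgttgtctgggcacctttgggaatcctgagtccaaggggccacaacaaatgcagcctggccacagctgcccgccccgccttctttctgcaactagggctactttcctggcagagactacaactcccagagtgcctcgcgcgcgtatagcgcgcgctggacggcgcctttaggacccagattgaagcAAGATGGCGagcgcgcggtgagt
Mrps21, chr3:95871465-95871764, minus strand, with an ETS match after the start: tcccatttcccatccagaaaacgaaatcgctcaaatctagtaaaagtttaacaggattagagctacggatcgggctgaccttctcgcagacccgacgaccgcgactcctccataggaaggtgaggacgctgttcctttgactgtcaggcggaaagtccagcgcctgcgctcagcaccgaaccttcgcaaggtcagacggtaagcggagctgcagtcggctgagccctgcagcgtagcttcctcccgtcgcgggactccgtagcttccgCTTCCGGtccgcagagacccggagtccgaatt
Mrps24, chr11:5707652-5707951, minus strand, with an SP1 match before and a YY1 match after the start: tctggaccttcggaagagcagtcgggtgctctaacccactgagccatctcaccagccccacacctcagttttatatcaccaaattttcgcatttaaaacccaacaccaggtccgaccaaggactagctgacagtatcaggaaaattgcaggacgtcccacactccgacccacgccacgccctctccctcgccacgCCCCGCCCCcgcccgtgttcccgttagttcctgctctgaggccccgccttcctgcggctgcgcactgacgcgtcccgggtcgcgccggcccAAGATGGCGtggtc
Mrpl50, chr4:49521034-49521333, minus strand, with no match: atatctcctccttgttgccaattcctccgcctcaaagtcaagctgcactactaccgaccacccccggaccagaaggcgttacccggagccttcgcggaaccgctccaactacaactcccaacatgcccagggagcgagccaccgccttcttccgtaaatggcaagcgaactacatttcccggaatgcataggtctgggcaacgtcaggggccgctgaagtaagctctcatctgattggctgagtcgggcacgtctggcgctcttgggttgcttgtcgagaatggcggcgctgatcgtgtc
Mrps18a, chr17:46110754-46111053, plus strand, with an ETS match before and a YY1 match after the start: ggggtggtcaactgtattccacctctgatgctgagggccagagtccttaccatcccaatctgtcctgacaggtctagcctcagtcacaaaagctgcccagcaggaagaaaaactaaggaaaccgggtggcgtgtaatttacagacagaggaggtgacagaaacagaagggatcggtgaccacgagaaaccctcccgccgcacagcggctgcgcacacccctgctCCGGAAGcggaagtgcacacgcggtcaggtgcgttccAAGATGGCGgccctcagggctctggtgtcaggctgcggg
Mrps18b, chr17:35916391-35916690, minus strand, with an SP1 match before and an ETS match after the start: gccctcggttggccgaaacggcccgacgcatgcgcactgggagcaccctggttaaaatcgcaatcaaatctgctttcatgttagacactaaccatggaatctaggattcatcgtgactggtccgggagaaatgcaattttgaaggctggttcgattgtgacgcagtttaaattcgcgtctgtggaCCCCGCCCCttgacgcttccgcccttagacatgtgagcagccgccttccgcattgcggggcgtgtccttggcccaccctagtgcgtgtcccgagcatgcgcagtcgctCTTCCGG
Mrps18c, chr5:100798509-100798808, plus strand, with an ETS match before the start: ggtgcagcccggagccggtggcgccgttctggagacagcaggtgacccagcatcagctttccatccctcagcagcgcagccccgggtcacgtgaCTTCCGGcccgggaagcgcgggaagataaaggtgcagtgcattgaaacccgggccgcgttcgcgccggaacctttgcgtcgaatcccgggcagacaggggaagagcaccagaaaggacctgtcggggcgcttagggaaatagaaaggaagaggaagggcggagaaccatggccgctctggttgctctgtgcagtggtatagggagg
Mrpl39, chr16:84735195-84735494, minus strand, with an NRF1 match before the start: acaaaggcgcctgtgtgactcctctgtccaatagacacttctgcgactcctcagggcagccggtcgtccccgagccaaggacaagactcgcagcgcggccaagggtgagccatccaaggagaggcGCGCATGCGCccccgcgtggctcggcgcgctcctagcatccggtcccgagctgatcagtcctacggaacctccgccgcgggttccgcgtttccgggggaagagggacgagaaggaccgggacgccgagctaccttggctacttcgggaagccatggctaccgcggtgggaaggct
Of the 6 members far higher in muscle, Mrpl42, Mrps21 and Mrps24 hold ETS or YY1 letters in these windows and Mrpl23, Mrpl14 and Mrpl50 hold neither, while Mrps18b, which did not pass between the wild-type tissues, holds an ETS match.

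The 6 members with the largest excess in muscle were Mrpl23, Mrpl14, Mrpl42, Mrps21, Mrps24 and Mrpl50. Mrpl23, a large-subunit protein at the exit of the peptide tunnel, had normalised counts of 942, 1058 and 1443 in the wild-type muscle libraries. The mutant muscle libraries had 1196, 1098 and 1151. In testis it was at 46.8, 46.6 and 47.6 in wild type and at 63.5, 39.8 and 55.1 in the group labelled mutant. The tissues do not overlap, and the wild-type log2 difference was 4.56 (SE 0.16, limma adjusted p = 4.05e-08), 24.4-fold between the means. Testis library B, with the least muscle marker RNA, did not differ in Mrpl23 from A and C by more than 1 normalised count. The next protein-coding gene before Mrpl23 on the same strand, 16676 bases away on chromosome 7, is Tnnt3, the fast muscle troponin T. This neighbour was chosen after its values were seen. Tnnt3 averaged 363750 ± 73515 normalised counts in wild-type muscle and 1136 ± 1180 in wild-type testis, and the part of reads running on from it in the Mrpl23 value was not tested. A copy of 540 bases that is identical to Mrpl23, Mrpl23-ps1, was at 19.8 in wild-type muscle and 3.09 in wild-type testis.

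Mrpl42, a large-subunit protein without a bacterial counterpart, had the highest normalised counts of these 6. It was at 3230, 3196 and 4519 in wild-type muscle and 4246, 3661 and 3943 in mutant muscle. In testis it was at 196, 176 and 214 in wild type and 225, 232 and 212 in the libraries labelled mutant. Wild-type muscle C is the highest library, every muscle library is far above every testis library, and the log2 difference was 4.20 (SE 0.15, adjusted p = 3.50e-08). Mrps21 was at 1417, 1370 and 2328 in wild-type muscle and 131, 114 and 117 in wild-type testis, with a log2 difference of 3.77 (SE 0.20, adjusted p = 3.45e-07). Muscle C was again the highest library of its group.

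Mrpl14, a core large-subunit protein, was at 741, 873 and 1076 in wild-type muscle and 54.7, 30.8 and 38.4 in wild-type testis, a log2 difference of 4.43 (SE 0.23, adjusted p = 3.16e-07). It starts 583 bases from Tmem63b on the other strand, and 11.2% of its exon bases overlap that gene, which differed by 4.07. Mrps24 averaged 720 ± 86.0 and 57.7 ± 8.67 (log2 difference 3.62), and 15.4% of its exon bases are shared with Urgcp on the same strand, which differed by 1.74. Mrpl50, without a bacterial counterpart, averaged 900 ± 114 and 108 ± 5.86 (3.04). In these 6 members each muscle library was above each testis library in both genotypes, and the wild-type calls held under all alternatives that were run.

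Mrpl39 was the 1 member with a large excess in testis. It is a large-subunit protein without a bacterial counterpart, related to threonyl-tRNA synthetase. Its normalised counts were 538, 511 and 560 in wild-type muscle and 1540, 1513 and 1535 in wild-type testis. Mutant muscle had 561, 488 and 498, and the testis libraries labelled mutant had 1481, 1786 and 1670. The groups are far apart and the 6 testis libraries are all above the 6 muscle libraries. The log2 difference was -1.51 (SE 0.07, adjusted p = 1.75e-07) in wild type, 2.85-fold higher in testis, and -1.67 in the libraries labelled mutant. None of its exon bases overlap another gene, and no processed copy passed the limits of the search.

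The other 3 members called lower in wild-type muscle differed by less. Mrpl20, a large-subunit protein with a bacterial counterpart, was at 337, 249 and 375 in wild-type muscle and 487, 473 and 443 in wild-type testis (log2 difference -0.56, SE 0.15, adjusted p = 0.0074 by limma). In the libraries labelled mutant its groups overlapped, with 392, 364 and 586 in muscle and 721, 489 and 549 in testis (-0.40, adjusted p = 0.115). Mrpl24 (-0.34) and Mrps25 (-0.31) passed in both comparisons. They were no longer past the threshold by TMM scaling (-0.18 and -0.15), edgeR (-0.14 and -0.11) or DESeq2 (-0.24 and -0.22), and Mrpl24 also not with median-of-ratios scaling (-0.27) or without a variance trend. Leaving out muscle A, muscle B, testis A or testis C also ended the call of Mrpl24, with differences of -0.29, -0.26, -0.33 and -0.34. Mrps25 shares 69.8% of its exon bases, mostly with Nr2c2 on the other strand, which was itself lower in muscle (-1.16), and whether the authors' counting used the strand is not given in the sources used here. Mrpl24 shares 26.3% with Rrnad1 on the other strand (-0.67).

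All structural classes had more members higher in muscle than lower. Large-subunit proteins with a bacterial counterpart were higher in 25 and lower in 2 of 30 (median 1.39), and small-subunit proteins with one were higher in 15 and lower in 0 of 16 (median 1.48). Among proteins without a bacterial counterpart, those of the large subunit were higher in 16 and lower in 1 of 19 tested (median 0.94), and those of the small subunit were higher in 7 and lower in 1 of 10 (median 1.51). Classes were assigned from general knowledge of the ribosome's structure, and the differences between class medians were not tested. Mrps36 (1.30) lay close to the members' median.

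The 3 members of the S18 family, which descend from 1 bacterial protein, did not keep the same ratio in both tissues. Mrps18c takes the place of the bacterial protein, while Mrps18a sits in the large subunit and Mrps18b elsewhere in the small subunit. Mrps18a was at 766, 878 and 1044 in wild-type muscle and 340, 314 and 302 in wild-type testis (log2 difference 1.48). Mrps18c was at 362, 385 and 540 and at 147, 152 and 159 (1.461). Mrps18b was at 459, 509 and 593 in wild-type muscle and 504, 418 and 479 in wild-type testis, where the groups overlap (0.15, SE 0.12, adjusted p = 0.262 by limma). By TMM scaling (0.31) and by edgeR (0.35) it passed as higher in muscle, and by total-read scaling it passed as lower (-0.33). In the libraries labelled mutant Mrps18b passed as higher in muscle with groups that overlap (0.30, adjusted p = 0.0487 by limma). A ratio within a library does not depend on scaling. Over 6 muscle against 6 testis libraries the log2 ratio of Mrps18a to Mrps18b was 0.74 ± 0.11 and -0.44 ± 0.17, and that of Mrps18c to Mrps18b was -0.20 ± 0.20 and -1.49 ± 0.22. Both differed between the tissues by an exact two-sided permutation test (p = 0.00216, the smallest this design can give, and 0.00325 after adjustment over the 3 ratios). The ratio of Mrps18a to Mrps18c differed by -0.11 (exact permutation p = 0.286). Libraries of both tissues from 1 mouse were counted as separate samples in this test. Mrps18b shares 30.5% of its exon bases with the antisense gene Gm16279, whose mean was 527 ± 54.5 in wild-type muscle and 936 ± 27.5 in wild-type testis, and its part in the Mrps18b value was not tested.

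**Figure D3:**
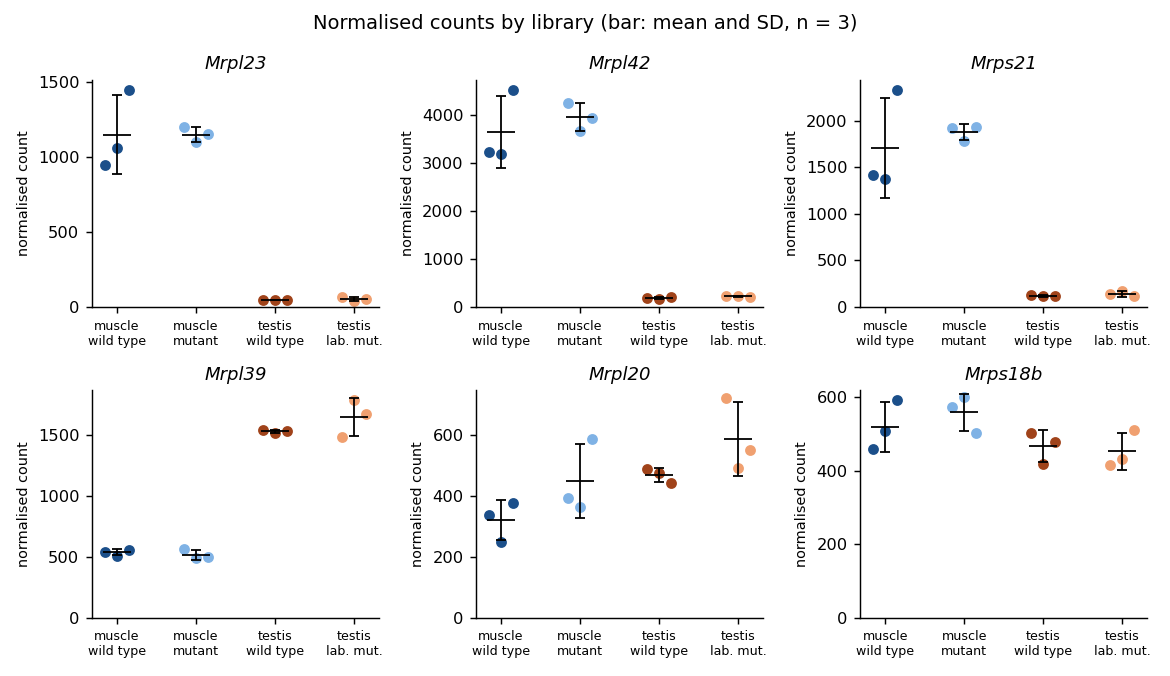
Normalised counts of 6 members in each of the 12 libraries (points), with the mean and SD of each group of 3 (black). Mrpl23, Mrpl42 and Mrps21 are near the axis in testis, Mrpl39 averages 1529 in wild-type testis and 536 in wild-type muscle, and for Mrps18b the 4 groups overlap.

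Many members start close to a neighbour that is read in the opposite direction. Of the 77, 32 (41.6%) have a start within 1000 bases of the start of a protein-coding gene on the other strand that extends to the upstream side, against 10.8% of 22028 protein-coding genes in the GENCODE annotation of GRCm38. In 14 of the 32 the 2 genes overlap at their starts, and in 18 (23.4% of the members, against 6.76% of protein-coding genes) they do not. Both genes of 31 such pairs were tested in wild type. Of the 24 pairs in which both genes passed, both were higher in muscle in 12, and the member was higher and the partner lower in the other 12. By TMM scaling these counts were 14 and 12 of 26 pairs, and by total reads 5 and 13 of 21, with both lower in another 3. Among all genes tested, 37.3% passed as higher and 50.6% as lower in muscle, so partners that are lower are not particular to these pairs. Across the 31 pairs r between the differences of member and partner was 0.24 and rho 0.06.

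Single pairs show both patterns. Of those named here, Mrpl14, Mrpl36, Mrpl9 and Mrps11 overlap their partner at the starts, where reads of the 2 genes cannot be told apart without strand, and Mrpl50 and Mrpl10 do not. Mrpl14 and its partner Tmem63b were both higher in muscle (4.43 and 4.07), as were Mrpl36 and Ndufs6, a subunit of respiratory complex I, whose starts are 29 bases apart (1.72 and 2.40). Mrpl9 was 1.77 higher on the log2 scale in muscle, whereas Oaz3, an antizyme known from spermatids, 597 bases away, averaged 569 ± 60.5 in wild-type muscle and 16472 ± 55.7 in wild-type testis (-4.86). Mrpl50 (3.04) starts 83 bases from Zfp189 (-1.93). Mrpl10 did not pass (-0.04) while Lrrc46, 153 bases away, differed by -6.49. In 1 pair both genes are members. Mrps11 and Mrpl46, of the small and the large subunit, start 412 bases apart on chromosome 7. Mrpl46 was at 422, 510 and 552 in wild-type muscle and 273, 312 and 292 in wild-type testis (0.75, adjusted p = 3.98e-04 by limma). Mrps11 was at 288, 304 and 324 in muscle and 312, 328 and 312 in testis, with overlapping groups (-0.06, adjusted p = 0.581).

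Shared sequence was checked for every member. Exon bases of 32 members overlap another gene, and in Mrpl53, Mrps34 and Mrps25 most of them do, and 20 members match 28 pseudogenes with at least 95% identity over at least 150 bases, of which Gm9894 and Gm10499 each match both Mrps26 and Mrps14. How reads in such stretches were assigned is not given in the sources used here, so the values of these members are less certain. In the 31 members with neither, 26 were higher and 2 lower in wild-type muscle, with a median of 1.33 that lies close to that of all 76.

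Other genes of mitochondrial protein synthesis were set beside the members. Of 5 ribosomal proteins under other symbols, 4 were higher in muscle and Dap3, a small-subunit GTP-binding protein, was lower (924 ± 104 in wild-type muscle and 2307 ± 58.9 in wild-type testis, log2 difference -1.32), while Chchd1 was higher by 2.82 on the log2 scale. Translation factors were higher in 15 and lower in 1 of 17 (median 1.463). The smallest p values were those of Taco1, a translational activator of cytochrome oxidase subunit I (3.94), and the elongation factor Gfm1 (2.18), and the largest difference was that of Mss51 (4.18). Assembly factors, which fold and modify the ribosomal RNA and join the proteins to it, were higher in 18 and lower in 5 of 27 (median 1.04). The RNA helicase Dhx30 averaged 681 ± 51.3 in wild-type muscle and 3723 ± 84.5 in wild-type testis (-2.45), and the RNA methyltransferase Nsun4 averaged 465 ± 59.9 and 4401 ± 209 (-3.25), both higher in testis. Assembly factors thus had 18.5% of tested genes lower in muscle, against 5.26% of the members, a difference that was not tested.

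Mitochondrial transcription genes were higher in 4 and lower in 1 of 7. Tfb2m, a transcription initiation factor, was 2.53 higher and Tfam, which packages mitochondrial DNA, was lower in muscle (845 ± 54.7 against 2370 ± 85.5, -1.49). The 2 mitochondrial ribosomal RNAs, as far as poly(A) selection captures them, differed by 3.92 (mt-Rnr1) and 4.09 (mt-Rnr2), more than every member but Mrpl23, Mrpl14 and Mrpl42. Of 9 transcription factors and coactivators linked to mitochondrial gene expression, 7 were higher and 2 lower, with the smallest p for Esrra (2.89) and Ppargc1a (3.34), both higher, and with Nrf1 (-0.41) and Gabpb1 (-1.03) lower. Nuclear subunits of oxidative phosphorylation were higher in 78 and lower in 4 of 84 with a median of 2.65, and cytosolic ribosomal proteins were higher in 74 and lower in 4 of 81 with a median of 1.23. The differences between list medians are given as descriptions.

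**Figure D4:**
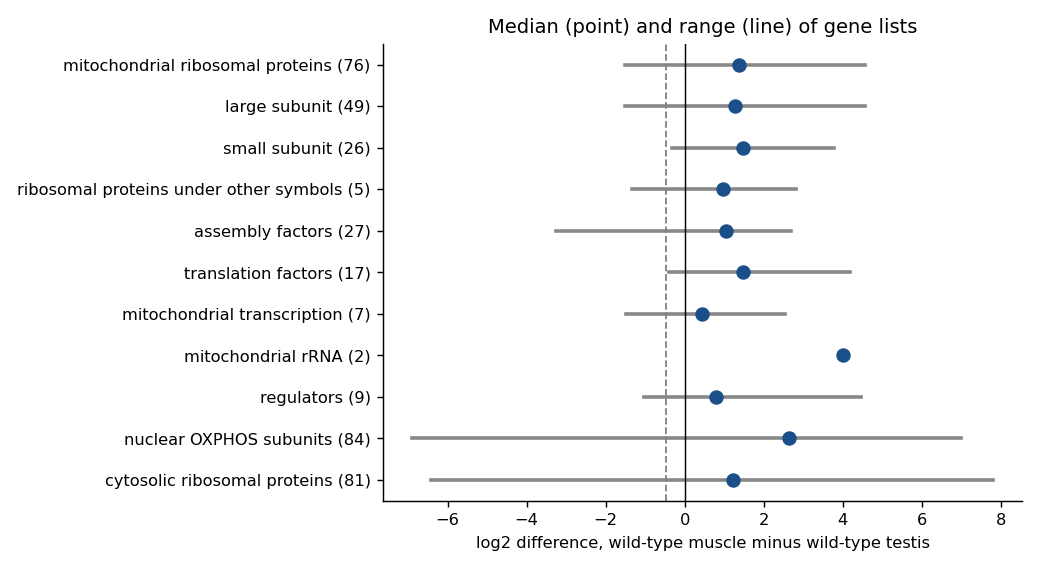
Median (point) and range (line) of the log2 difference between wild-type muscle and wild-type testis for the members, their 2 subunits and 8 other gene lists, with the number of genes tested in brackets. The solid line is 0 and the dashed line the median of all genes at -0.48; the members lie at 1.36, and OXPHOS, the nuclear subunits of oxidative phosphorylation, at 2.65.

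In mutant muscle, 0 of 77 members passed against wild-type muscle by limma, where 0.0369% of 16246 genes passed (6 genes). At an unadjusted p below 0.05 there were 2 members (2.6%, against 9.52% of all genes), and 6 by edgeR and 7 by DESeq2, neither of which called a member. Over all 16246 genes, 1418 were below it by edgeR and 1333 by DESeq2. The median log2 change was 0.09, against -0.04 for all genes, with 59 of 77 members and 7227 of all 16246 genes above 0. This shift is smaller than the spread between the wild-type libraries. The members' median against the wild-type mean was -0.13 for A, -0.07 for B and 0.20 for C, while the mutant libraries had 0.08, 0.08 and 0.11. Wild-type C lies above all 3 mutant libraries on this scale. Relative to the median of all genes in the same library, C (0.15) lies beside mutant F (0.14) and G (0.15). As a share of reads the members took 0.310%, 0.313% and 0.351% in wild type and 0.344%, 0.374% and 0.400% in mutant muscle, where C lies above D and below F and G. Without C the median change was 0.18 and without A it was 0.01. Without the high-islet libraries F and G, which leaves D as the only mutant library, the median change was 0.08.

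The member with the smallest p was Mrpl12, at 1385, 1432 and 1624 in wild-type muscle and 1730, 1832 and 1962 in mutant muscle. The groups do not overlap, but the change of 0.32 on the log2 scale (SE 0.13) did not pass (limma adjusted p = 0.519). Groups that do not overlap, with the mutant higher, were found for 5 of 77 members (6.49%), against 5.11% of all genes tested, and with the mutant lower for 0, against 8.85%. Mrpl20 was at 337, 249 and 375 and at 392, 364 and 586, where mutant G stands above the rest and the groups overlap (0.47, adjusted p = 0.519 by limma). Mrpl41 (0.38) and Mrps35 (0.32) came next by p, also with overlapping groups. Nuclear subunits of oxidative phosphorylation had a median change of 0.16 and cytosolic ribosomal proteins of 0.35, with 0 called in either list. With 3 libraries per group, changes of 0.5 on the log2 scale were called for 10.4% of changed genes in simulated data modelled on this comparison and changes of 1 for 71.6%, so that small changes would mostly go uncalled. The simulation held 67 changed genes at each of these sizes and 66 at 2, whereas 6 genes passed in the real comparison. More changed genes make the adjusted threshold easier to reach, so these shares may be too high for the real data.

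In testis the libraries labelled mutant had slightly higher levels of the members than wild type, again with 0 of 76 passing by limma (0.0205% of 19543 genes passed, 4 genes). At an unadjusted p below 0.05 there were 8 members (10.5%, against 7.09% of all genes), 5 by edgeR and 3 by DESeq2, none of them called. Over all 19543 genes, 1011 were below it by edgeR and 626 by DESeq2. The median change was 0.11, against 0.03 for all genes, with 66 of 76 members and 11642 of all 19543 genes above 0. As a share of reads the members took 0.199%, 0.194% and 0.197% in wild type and 0.205%, 0.208% and 0.202% under the mutant label, so the groups of 3 do not overlap. Single members whose groups did not overlap were 16 of 76 (21.1%) with the labelled mutants higher, against 9.72% of all genes, and 1 (1.32%) with them lower, against 3.67%. The gap between members and all genes was 0.08 with each of the scalings by TMM, median of ratios and total reads. Without the high-islet wild-type libraries A and B, which leaves C as the only wild-type library, the median change was 0.10.

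Mrpl15, a large-subunit protein with a bacterial counterpart, had the smallest p. It was at 379, 277 and 328 in wild-type testis and 443, 401 and 412 under the mutant label, a change of 0.36 (SE 0.11, limma adjusted p = 0.696). Mrps15, a small-subunit protein, was at 275, 262 and 239 and at 323, 302 and 316 (0.28, adjusted p = 0.696 by limma). Both have groups that do not overlap, and neither passed. Mrpl43 (0.30) and Mrpl20 (0.31, with library D highest at 721) followed. The median change was 0.13 for the large and 0.06 for the small subunit, a difference that was not tested. Nuclear subunits of oxidative phosphorylation had a median of 0.17 and cytosolic ribosomal proteins also of 0.17, both with 0 called, so that small positive values were not limited to the members.

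The difference between the genotype change in muscle and that in testis passed for 0 of 76 members by limma, where 0.0136% of 14677 genes passed (2 genes). At an unadjusted p below 0.05 there were 2 members (2.63%, against 8.69% of all genes), 2 by edgeR and 3 by DESeq2. Over all 14677 genes, 1176 were below it by edgeR and 1352 by DESeq2. The median difference was -0.04, against -0.08 for all genes, and without single libraries it ranged from -0.11 to 0.07, the highest value being that without wild-type muscle C. Mrpl16 had the smallest p, at 518, 572 and 656 in wild-type and 543, 551 and 492 in mutant muscle, and at 207, 250 and 200 in wild-type testis and 262, 253 and 269 in testis labelled mutant. Its difference was -0.39 (SE 0.17, limma adjusted p = 0.574). Mrps22 (-0.35), Mrps33 (0.55) and Mrpl12 (0.27) followed, and a near-identical copy of Mrps33 (Gm5776, 99.7% over 321 bases) was at 7.17 in wild-type and 21.8 in mutant muscle. The 5 members on chromosome 7, which holds Bckdk, are Mrps12, Mrpl46, Mrps11, Mrpl17 and Mrpl23, and their changes in mutant muscle lay between 0.02 and 0.14 with 0 called in either tissue.

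**Figure D5:**
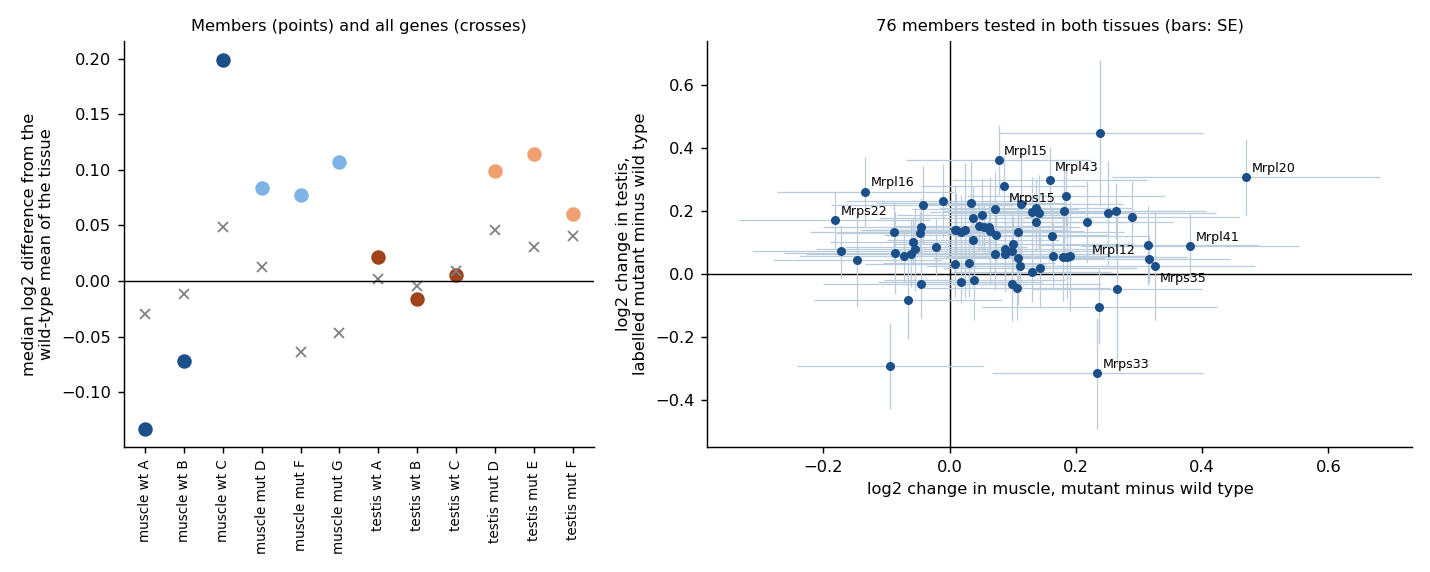
Left, the members' median log2 difference from the wild-type mean of the tissue in each of the 12 libraries (points) beside that of all genes (crosses), where wild-type muscle C (0.20) lies above the 3 mutant muscle libraries. Right, the log2 change with SE in muscle (x) and testis (y) of the 76 members tested in both tissues, in which 0 points passed the test over all genes.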

How the data were processed

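The deposited table holds normalised counts, which the authors made by dividing the reads of each library by a size factor over the 12 libraries. As deposited by the authors, this signal is per gene and not per length, and whole reads were recovered for 100% of values (tolerance 0.001). A second deposited table holds rlog values on a log2 scale. Per the submitters' processing notes, the tools were DESeq2 1.46.0, HTSeq 0.11.2, HISAT2 2.1.0, fastp 0.23.4 and Picard 1.119, with GRCm38.p4; strand and annotation are not given in the sources used here. In 1 testis library (D) 26 cells hold dates, were treated as missing, and include no member.

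Values were compared as log2(normalised count + 1) with limma 3.58.1 in R 4.3.3 (two-sided, lmFit and eBayes with a variance trend), on genes at 10 or more in at least 3 libraries of the comparison (for the difference between tissues, in each tissue). P values were adjusted by Benjamini-Hochberg over all genes tested and called below 0.05. edgeR 4.0.16 and DESeq2 1.42.0 on recovered reads, other scalings, pseudocounts and filters, rlog values and leaving out libraries were the alternatives. The fits were tested on simulated data. BLAST 2.17.0 was used for pseudogene copies and matplotlib 3.10.9 for plots.

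Letters stand for mouse numbers in the column names, which the replicate numbers of the titles are not tied to. Same-lettered libraries of both tissues come from 1 animal, and their deviations from the group means correlated at -0.036 to 0.009 over 14677 genes. The labels call the replicates biological.

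The members, lists and motifs were chosen with earlier results of these data known. Named were the 5 highest and 5 lowest members per kb, the 6 called members with the largest difference in each direction, the 4 smallest p per genotype comparison, the S18 family, paired members, chromosome 7 members and up to 2 genes per other list with the smallest p; other names were chosen after their values were seen.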

Additional observations from a re-analysis of the deposited data

How the results depend on the processing

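Between tissues, counts of members called in either direction together stayed within 1.5 times the reported count under all alternatives run. Those called lower, taken alone, moved by more with the scaling, as given above. The count of 0 for the genotype comparisons and their difference was unchanged under all alternatives run. Without single libraries, called members ranged from 66 to 69 between the wild-type tissues, from 62 to 68 between the tissues of the labelled mutants, and stayed at 0 for both genotype comparisons and for their difference. Calls between tissues over all genes then ranged from 13480 of 16348 to 16721 of 19064 in wild type. For the labelled mutants they ranged from 12904 of 16323 to 16335 of 19028. In muscle and for the difference, genotype calls over all genes were less stable than those of members. Without mutant muscle D, 497 of 15964 genes passed in muscle and 951 of 14482 for the difference, against 6 and 2 with all libraries. The wild-type tissue median of 1.36 became 0.88 by total-read scaling, 1.03 with rlog values and 1.56 by edgeR. The median of the labelled mutants (1.34) became 1.28 with a pseudocount of 8, 1.47 by TMM, 1.02 by total reads, 1.02 with rlog values, 1.51 by edgeR and 1.39 by DESeq2. The testis genotype median (0.11) became 0.059 by total reads, 0.075 by edgeR and 0.078 by DESeq2. Mrps18b turned to -0.33 by total reads. The cause of these moves was not tested. Without single libraries these medians ranged from 1.28 to 1.42, 1.27 to 1.35, 0.092 to 0.12 and, in muscle, 0.01 to 0.18. The other length for levels per kb and the shorter NRF1 motif were chosen after seeing the data; the latter moved the share of member promoters from 4.23% to 9.86%. Mrps21 moved to rank 2 and Mrpl39 to rank 3 by the other length, and the SP1 share fell outside its binomial interval in the shorter window.

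With the mouse number as replicate block, 68 members were called between the wild-type tissues, 67 between the tissues of the labelled mutants, and 0 for the difference of the genotype changes, with medians of 1.36, 1.34 and -0.04. Over all genes tested, these fits called 17403 of 19994, 17144 of 20021 and 2 of 14677, so calls between tissues were not particular to the members. The block could not be used within a tissue, where each mouse gave 1 library. Mrpl53 had the lowest counts of the members, at 4.16 to 17.97 normalised counts in the wild-type libraries.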
